A study of Mus musculus with 36 samples.

Results

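Id1, Id2, Id3, Id4, Bmp2, Bmp4, Bmpr1a, Bmpr2, Smad6 and Grem1 were examined as genes of bone morphogenetic protein (BMP) signalling in Lewis lung carcinoma (LLC), a mouse lung tumour line that grows as a tumour when put into mice. They are 10 of the 19057 genes with a probe on the Illumina Mouse WG-6 BeadArray, and every probe that the platform table pairs with their symbols was taken, 18 in all, whatever its level. LLC tumours came from male mice: 10 from young unirradiated mice, 8 from young mice given 56Fe ions (heavy iron ions as found in cosmic rays) in 5 exposures of 0.2 Gy, 7 from unirradiated middle-aged mice and 5 from middle-aged mice given the same exposures. Another 6 arrays held RNA of LLC cells as chip controls, 3 in each of 2 batches. RNA of the tumours was extracted from pieces of tissue, so host cells are part of every tumour sample. The labels call the cell arrays technical controls, so they were averaged to 1 sample, and the spread between cultures of LLC cells was not measured; the fit takes that sample to vary as tumours do. No source used here ties a tumour to its own mouse, so the p-values below cover sample-to-sample spread that may in part be technical.

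BMP ligands such as Bmp2 and Bmp4 are secreted proteins that bring together type I receptors, of which Bmpr1a is one, and type II receptors such as Bmpr2. The activated receptors phosphorylate Smad1, Smad5 and Smad9, which enter the nucleus with Smad4 and switch on target genes, among them Id1, Id2, Id3, Id4 and the inhibitory Smad6, which dampens the signal. Id proteins bind E proteins such as Tcf3, Tcf4 and Tcf12, keep them from binding DNA, and are known for holding cells in an undifferentiated, dividing state. Grem1 (gremlin 1) is a secreted antagonist that binds BMP ligands outside the cell, often made by stromal cells of tumours.

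RefSeq promoter windows (GRCm38.p6, from 250 bases before to 50 bases after a gene's start, position 0) were matched for 8 of the 10 genes. Id1 and Bmp2 had no window, so neither was searched. Each window was searched on both strands for GGCGCC, the GC-rich element that BMP-activated SMAD proteins are known to bind. GGCGCC was present once in 5 of the 8 windows, in Id2 at position -231, Id4 at position -148, Bmpr1a at position -198, Bmpr2 at position -105 and Grem1 at position -78, and in none of Id3, Bmp4 and Smad6. Of all 27025 promoter windows of that length, 3233 hold it. The short SMAD box GTCT lies in 88.0% of all windows, and GGCGCC followed after 5 bases by GTCT, a spacing known from BMP-responsive genes, lies in 0.0703% of all windows and in none of these 8. The 250 bases upstream of Id2, Id3 and Id4 are shown so that Id genes with and without the element can be read side by side: Id2 and Id4 hold it and Id3 does not. Id2 lies on the minus strand at chr12:25096093-25096342, Id3 on the plus strand at chr4:136143572-136143821 and Id4 on the plus strand at chr13:48260866-48261115, each printed 5′ to 3′ on its gene's strand with GGCGCC in capitals. A match is a description of the letters, and binding was not measured.
Id2: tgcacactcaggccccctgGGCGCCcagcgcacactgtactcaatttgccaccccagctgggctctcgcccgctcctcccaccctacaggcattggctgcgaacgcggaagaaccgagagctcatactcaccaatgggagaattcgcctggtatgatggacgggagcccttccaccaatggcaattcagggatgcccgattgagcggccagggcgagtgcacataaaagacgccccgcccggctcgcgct
Id3: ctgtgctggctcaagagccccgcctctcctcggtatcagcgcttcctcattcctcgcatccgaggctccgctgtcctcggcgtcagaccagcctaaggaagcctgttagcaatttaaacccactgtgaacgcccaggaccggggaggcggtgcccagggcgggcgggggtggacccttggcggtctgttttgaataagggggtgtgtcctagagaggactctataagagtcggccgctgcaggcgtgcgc
Id4: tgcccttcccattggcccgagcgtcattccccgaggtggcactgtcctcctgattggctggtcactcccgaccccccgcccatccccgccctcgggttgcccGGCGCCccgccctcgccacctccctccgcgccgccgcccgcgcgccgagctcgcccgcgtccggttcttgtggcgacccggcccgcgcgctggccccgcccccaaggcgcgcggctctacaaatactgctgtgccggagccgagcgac

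Levels are log2 intensities after background correction and quantile normalization, and a probe counts as detected where its detection p-value is under 0.05. Of 45281 probes, 28 tumours had 17329 to 19843 detected, while young irradiated replicates 6 and 8, called the dim arrays here, had 11860 and 14828. No tumour carries a batch label, so nothing could be compared within batches of tumours. Macrophage markers averaged between 11.02 and 11.17 on the log2 scale in the 4 tumour groups and 5.38 in the cells, and all 11 measured were higher in tumours by limma's test with Benjamini-Hochberg adjustment. Of 18 endothelial markers tested 12 were higher, with group means between 7.93 and 8.24 against 5.85 in the cells, and of 13 fibroblast markers 8 were higher. Of 12 cell cycle genes tested 10 were lower in the tumours, with a median log2 difference of -1.17. Skeletal muscle markers varied widely between tumours. Their means ran from 5.18 to 11.93 in young unirradiated tumours and from 5.41 to 11.70 in young irradiated ones. In middle-aged tumours they ran from 5.20 to 7.40 without irradiation and from 5.21 to 10.11 with it, against an average of 5.14 in the cells. Their part in the age and irradiation contrasts was not tested. The epithelial and lung markers Krt19, Epcam, Sftpc and Sftpb were undetected in all 4 tumour groups and in the cells, although the line is labelled a lung carcinoma. Of the 4 other epithelial and lung markers tested 0 passed between tumours and cells, with a median difference of 0.31.

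Tumours were set against LLC cells to show which of these transcripts differ between tissue and line. Id1 and Id3 were lower in the tumours than on any cell array, the Bmpr2 probe that stands for the gene was higher on every tumour array, and Id4 and Bmp2 were detected on none of the 36 arrays. How many of all genes tested separate tumours from cell arrays in this way was not counted. The cell arrays are technical controls that correlated at 0.983 or more, so a lack of overlap with them is a description only. Of the 8 genes tested, limma called 1 higher and 2 lower, and 5 did not pass. At an unadjusted p under 0.05 the same 3 members passed, against 33% of all genes. The background over all 11105 genes tested was 20.7% called in either direction, 11.7% higher and 9.01% lower. The median log2 difference was -0.29 over the 8 genes and -0.07 over all genes tested. The macrophage, endothelial, fibroblast and cell cycle levels above moved with this comparison, and their part in any member's difference was not tested. In tissue, fewer cells of a type and less RNA per cell cannot be told apart.

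**Figure D1:**
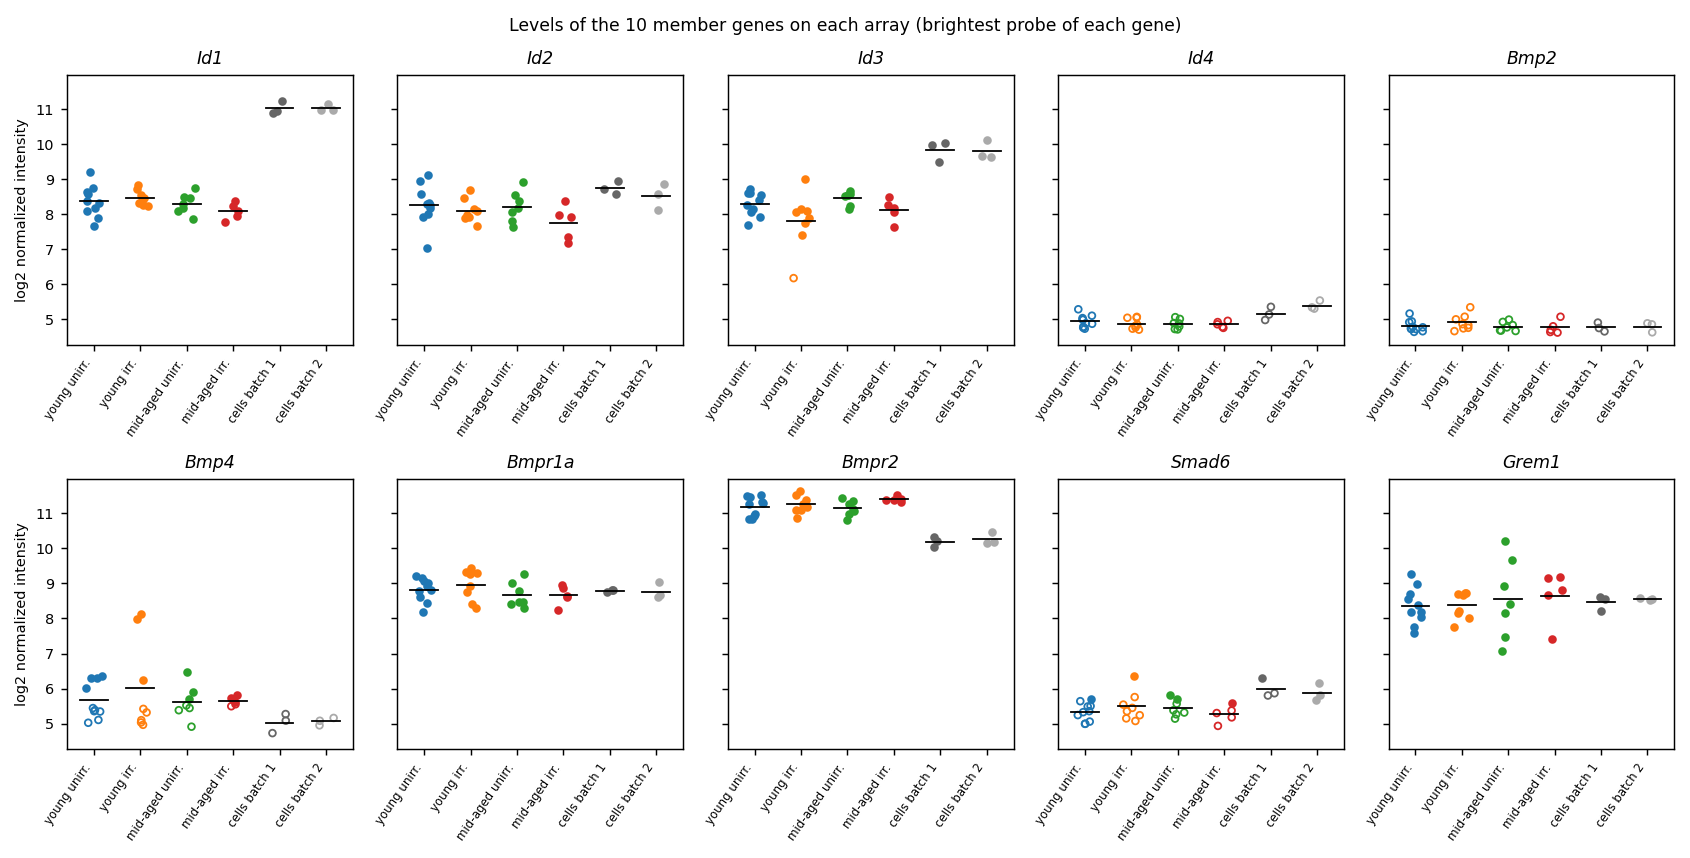
Log2 normalized intensity (vertical axis) of the brightest probe of each of the 10 genes on every array, by tumour group and cell batch (horizontal axis); each point is an array, open where the probe was undetected, and bars are group means. Id1 and Id3 lie lower in all 30 tumours than on the 6 cell arrays, Bmpr2 higher in all 30, and Id4 and Bmp2 are open throughout.

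Id1 (GRCm38.p6 chr2:152736251-152737410) is the Id gene most widely used as a readout of BMP signalling. It read 10.95, 10.89 and 11.23 on the cell arrays of batch 1 and 10.98, 10.99 and 11.15 on those of batch 2. Among young unirradiated tumours it ran from 7.67 over a median of 8.35 to 9.20, among young irradiated ones from 8.23 over 8.42 to 8.82, and among middle-aged unirradiated ones from 7.86 over 8.29 to 8.74. Middle-aged irradiated tumours read 8.37, 8.25, 8.10, 7.78 and 7.94. The tumour groups overlapped each other, and the highest tumour, young unirradiated replicate 2 at 9.20, lay below the lowest cell array. Id1 was lower by 6.62-fold in tumours (log2 -2.73, SE 0.33, limma adjusted p 2.9e-07) in 30 of 30 tumours, the seventh largest fall of the 11105 genes. It has 1 probe, detected on all 36 arrays. Against cell batch 1 alone the difference was -2.72 and against batch 2 alone -2.73.

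Id3 (chr4:136143822-136145392), another Id gene that BMP signalling is known to induce, read 10.03, 9.49 and 9.98 on the cell arrays of batch 1 and 10.11, 9.65 and 9.63 on those of batch 2. Young unirradiated tumours ran from 7.70 over a median of 8.34 to 8.71, young irradiated ones from 6.17 over 7.97 to 9.01, and middle-aged unirradiated ones from 8.16 over 8.55 to 8.67. Middle-aged irradiated tumours read 8.48, 7.62, 8.26, 8.18 and 8.07. Its lowest values, 6.17 and 7.41, were those of the dim arrays, and at 6.17 the probe was undetected. Id3 was 3.12-fold lower in tumours (log2 -1.64, SE 0.47, limma adjusted p 0.0127), below every cell array in 30 of 30 tumours. Without the dim arrays the difference was -1.56 (adjusted p 0.00067). Under median scaling in place of quantile normalization it was -1.98 and did not pass (adjusted p 0.149), where the median of all genes was -0.23.

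Id2 (chr12:25093799-25096092), which also sequesters E proteins, did not pass on its brightest probe. That probe read 8.58, 8.72 and 8.94 on the cell arrays of batch 1 and 8.13, 8.58 and 8.85 on those of batch 2, while the 30 tumours ran from 7.02 over a median of 8.12 to 9.11. Tumours and cells overlapped: 15 of 30 tumours lay below every cell array and 2 above every one. The log2 difference was -0.55 (SE 0.46, adjusted p 0.450; 95% interval from -1.50 to 0.40). On a second probe the tumours ran from 5.90 over a median of 7.72 to 8.57 and the cell arrays from 8.85 over 9.13 to 9.58, with no overlap and a difference of -1.51 (SE 0.56, limma adjusted p 0.0543 over 18147 probes). The dimmest probe was detected on 5 of 6 cell arrays and on 1 of 30 tumours. Its fitted difference was -1.11 (SE 0.27, adjusted p 0.0033), but the tumours were at background on it, so that value is not a measured size and supports no call for Id2. Neither brighter probe passed. Averaged over its detected probes Id2 gave -1.03 (adjusted p 0.0794). Id4 had 2 probes, both undetected on all 36 arrays, so no fold was set.

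Of the BMP ligands, Bmp2 had 1 probe, undetected on all 36 arrays. Bmp4, a ligand made by stromal and epithelial cells, was detected on 13 of 30 tumours and on 0 of 6 cell arrays by 1 of its 2 probes, and on no array by the other. Detected tumours numbered 4 of 10, 3 of 8, 3 of 7 and 3 of 5 in the order young unirradiated, young irradiated, middle-aged unirradiated and middle-aged irradiated. Cell arrays read 4.73, 5.27 and 5.08 in batch 1 and 5.16, 5.08 and 4.95 in batch 2, and tumours ran from 4.91 over a median of 5.51 to 8.13. The highest tumours, 8.13 and 7.99, were the dim arrays, whose unnormalized signals for this probe were 95.3 and 109 in a range of 95.3 to 344.7 over the tumours. The log2 difference of 0.69 (SE 0.76, adjusted p 0.569) did not pass, and the bound that an undetected group allows was under 1, so no fold is given.

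Bmpr2 (chr1:59764279-59878081), the type II receptor, was called higher on its brightest probe. Cell arrays read 10.20, 10.34 and 10.06 in batch 1 and 10.48, 10.19 and 10.15 in batch 2, and tumours ran from 10.82 over a median of 11.28 to 11.64 without overlap. The difference was 2.02-fold (log2 1.02, SE 0.24, limma adjusted p 0.0029), higher in 30 of 30 tumours. The other Bmpr2 probes did not show it. One, detected on 24 of 30 tumours and 4 of 6 cell arrays, gave 0.19 (SE 0.48, adjusted p 0.825), another, detected on 13 tumours and 1 cell array, gave 0.24 (SE 0.37, adjusted p 0.702), and the fourth was undetected throughout. Averaged over its detected probes Bmpr2 gave 0.48 and did not pass (adjusted p 0.242), and under median scaling it gave 0.54 (adjusted p 0.728). The brightest probe is named Bmpr2 in the platform table without a transcript accession.

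**Figure D2:**
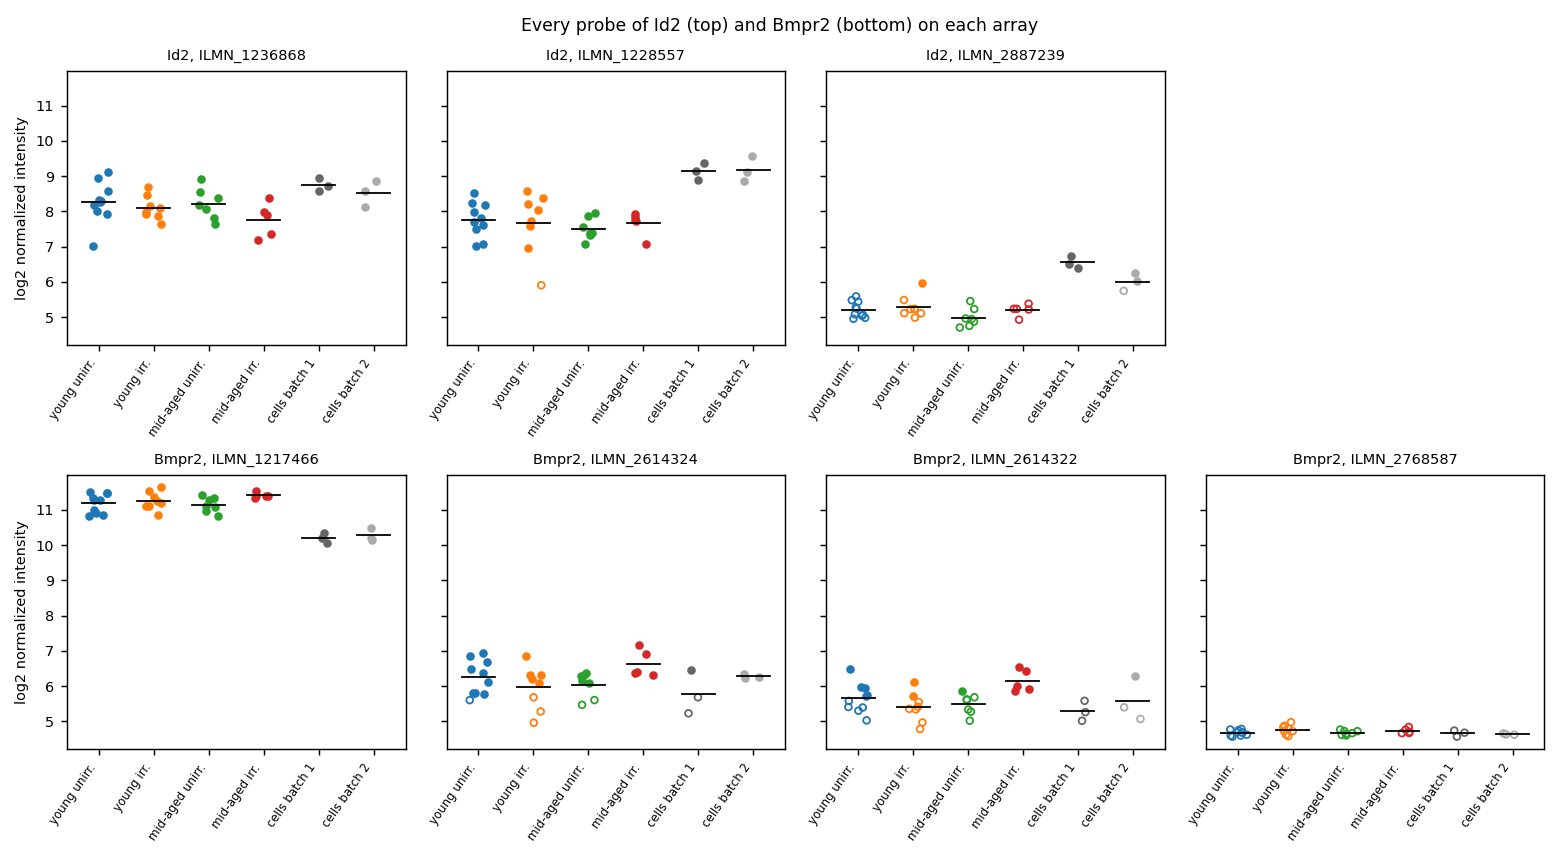
Log2 normalized intensity (vertical axis) of all 3 Id2 probes and all 4 Bmpr2 probes on every array, by tumour group and cell batch (horizontal axis); open points are undetected and bars are group means. The second Id2 probe separates all 30 tumours from the cells while the brightest overlaps them, and of the Bmpr2 probes the brightest alone lies higher in every tumour.

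Bmpr1a, the type I receptor, was at the level of the cells on its brightest probe, with a difference of 0.01 (SE 0.36, adjusted p 0.992; 95% interval from -0.72 to 0.74). Tumours ran from 8.20 over a median of 8.80 to 9.44 and cell arrays from 8.60 over 8.77 to 9.04. Its second probe lay below all 6 cell arrays in 29 tumours, with a difference of -0.71 (SE 0.48, adjusted p 0.320) that did not pass. Smad6, the inhibitory SMAD, was near the limit of detection, on 5 of 30 tumours and 4 of 6 cell arrays, and 25 tumours lay below every cell array. Its difference of -0.55 (SE 0.31, adjusted p 0.216) did not pass, and with the cell batches as 2 samples it did (adjusted p 0.0425). Grem1, the antagonist, differed by -0.03 (SE 0.69, adjusted p 0.985; 95% interval from -1.43 to 1.38). Cell arrays lay between 8.20 and 8.62, whereas tumours ran from 7.07 to 10.21, 12 below every cell array and 14 above every one.

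Beside these genes, 69 genes in 7 lists of the BMP pathway were read, members included; 64 have a probe and 35 were tested between tumours and cells. Limma called 10 higher and 3 lower, and 22 did not pass, with a median log2 difference of 0.30 against -0.07 over all genes tested. Over all 11105 genes tested 11.7% were called higher and 9.01% lower. Each list holds few tested genes, so the counts by list below are descriptions beside those shares. Of 2 ligands tested 0 passed, Bmp4 having the smaller p. Of 7 receptors and co-receptors 2 were higher, Bmpr2 and the co-receptor Rgma at 2.38 (SE 0.44, adjusted p 0.00019). Rgma ran from 8.39 to 10.18 in the tumours and from 6.66 to 7.33 on the cell arrays, without overlap. Of 8 extracellular antagonists 2 were higher, the follistatin-like Fstl1 at 2.33 (SE 0.27, adjusted p 1.4e-07) and Twsg1, a BMP-binding protein, at 0.66 (SE 0.20, adjusted p 0.0152). Both SMAD transducers tested were higher, Smad5 at 1.85 (SE 0.30, adjusted p 2.7e-05) and Smad1 at 0.75 (SE 0.26, adjusted p 0.0384). Smad9 was not among the genes tested.

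Of 5 intracellular inhibitors 2 were higher, the SMAD co-repressors Skil at 1.93 (SE 0.33, adjusted p 5.2e-05) and Ski at 0.85 (SE 0.26, adjusted p 0.0179), and Tob1, an antiproliferative protein that binds SMADs, was lower at -0.94 (SE 0.33, adjusted p 0.0416). Of 9 BMP target genes tested 2 were called lower, Id1 and Id3. Another 2 were called higher, the AP-1 factor Junb at 2.20 (SE 0.39, adjusted p 0.00011) and Hey1, also a Notch target, at 1.29 (SE 0.31, adjusted p 0.0031). Hey1 was detected on 30 of 30 tumours and 1 of 6 cell arrays. Its cell values lie mostly at background, so, as for the dimmest Id2 probe, the fitted 1.29 is not a measured size. Of the 3 E proteins 0 passed, Tcf4 having the smallest p (0.75, SE 0.31, adjusted p 0.0872). Of the genes other than Id1, Id3 and Bmpr2 that were called, Junb, Smad5, Fstl1, Skil, Smad1, Rgma and Hey1 were above every cell array in 30 of 30 tumours, Twsg1 and Ski in 29, and Tob1 was below every one in 29. The share of all genes tested with such separation was not counted, so whether these counts are particular to the lists cannot be told. Without the dim arrays the list count was 13 as well. With the authors' normalized values it was 10, since Hey1 gave 0.33 (adjusted p 0.226), Tob1 -0.62 (adjusted p 0.0846) and Twsg1 0.62 (adjusted p 0.122) and none of them passed. Hey1 gave 0.49 (adjusted p 0.0196) without background correction. With the mean of detected probes Ski gave 0.76 (adjusted p 0.126) and Smad1 0.58 (adjusted p 0.0751). Against cell batch 1 alone Smad1 gave 0.63 (adjusted p 0.0851), and with no detection filter neither Smad1 (adjusted p 0.055) nor Tob1 (adjusted p 0.0649) passed. Under median scaling 1 gene of the lists passed, Id1 (-3.28, adjusted p 0.0038), where limma called 386 genes in all.

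**Figure D3:**
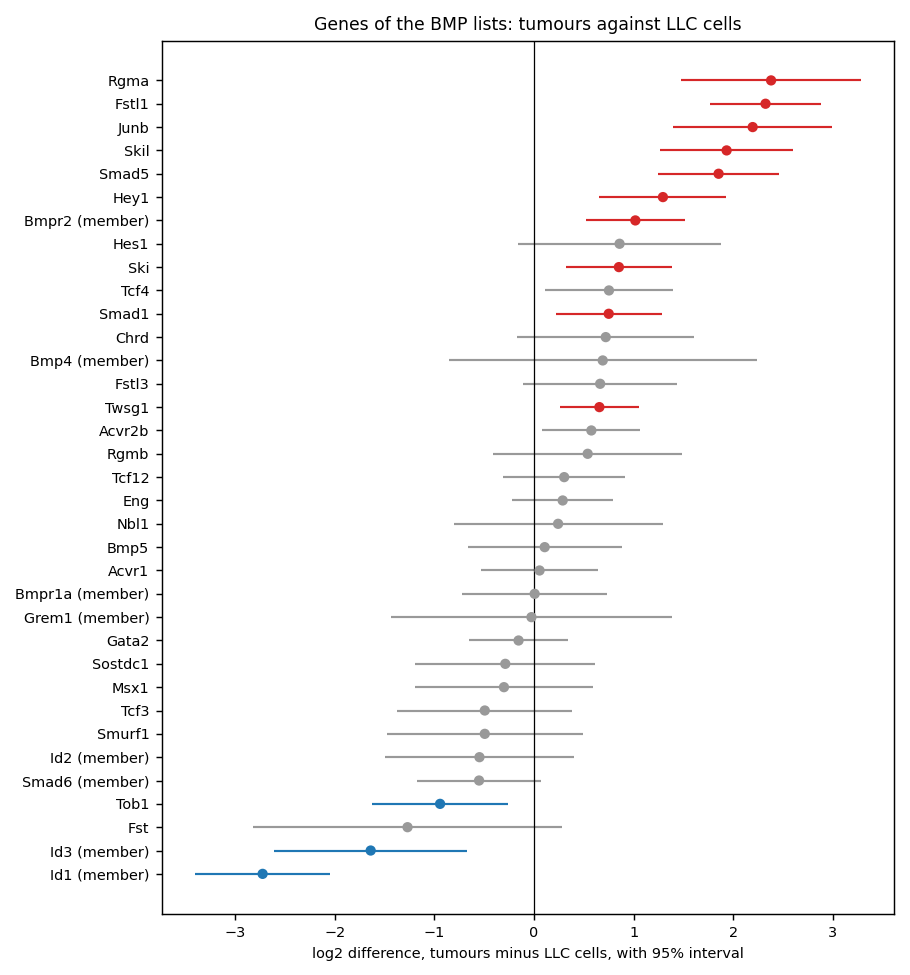
Log2 difference between tumours and LLC cells (horizontal axis) with its 95% interval for the 35 tested genes of the BMP lists (vertical axis); red and blue are genes called higher and lower by limma and grey did not pass. Id1 and Id3 stand at the low end at -2.73 and -1.64, and Rgma and Fstl1 at the high end at 2.38 and 2.33.

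Host age and irradiation, which the study's groups were formed to compare, were tested over the 30 tumours in 1 limma fit. None of the 8 genes tested passed in any of the 6 contrasts, against a background over 10907 genes of 0% for age without irradiation, 0.00917% for age among irradiated mice, 0% for irradiation at the young age, 0% for irradiation at middle age, 0.0183% for middle-aged irradiated against young unirradiated tumours and 0% for the difference between both irradiation effects. At an unadjusted p under 0.05 the backgrounds were 13.8%, 7.31%, 5.54%, 6.33%, 5.93% and 4.42% in that order, and 1 member met it with age in irradiated mice and 1 with irradiation in young mice.

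Among young mice, Id3 averaged 7.82 in irradiated tumours and 8.30 in unirradiated ones, a difference of -0.48 (SE 0.22, limma adjusted p 0.885; 95% interval from -0.93 to -0.03). The groups overlapped, and young irradiated tumours held both the lowest value, 6.17, and the highest, 9.01. Without the dim arrays, which are both in that group, the difference was -0.14 (SE 0.17). The Bmp4 difference in the same contrast was 0.36 with them and -0.32 without them. In middle-aged mice the Id3 difference with irradiation was -0.34 (SE 0.27, adjusted p 0.888).

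With age in irradiated mice, Id1 averaged 8.09 in middle-aged against 8.47 in young tumours, a difference of -0.38 (SE 0.19, adjusted p 0.683; 95% interval from -0.76 to -0.00). It was -0.45 without the dim arrays. Under median scaling it read 0.30 (SE 0.39), where the median of all genes stood at 0.66, so that Id1 was still below that median. In unirradiated mice the Id1 difference with age was -0.07 (SE 0.16, adjusted p 0.881; 95% interval from -0.40 to 0.26). Id2 was lowest in middle-aged irradiated tumours, whose values were 7.17, 7.34, 8.39, 7.91 and 7.97, with a difference of -0.51 (SE 0.25, adjusted p 0.834) from young unirradiated tumours, which ran from 7.02 to 9.11 and overlapped them. The second Id2 probe gave -0.10 (SE 0.30, adjusted p 0.992) in the same contrast.

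Bmpr2 differed little on its brightest probe, 0.26 (SE 0.14, adjusted p 0.814) with irradiation in middle-aged mice, where irradiated tumours read 11.39, 11.40, 11.34, 11.39 and 11.54 and unirradiated ones ran from 10.82 over a median of 11.12 to 11.43. Its dimmer probes gave larger values in the same contrast, 0.67 (SE 0.21, adjusted p 0.697) and 0.60 (SE 0.27, adjusted p 0.819), and 0.75 (SE 0.21, adjusted p 0.303) and 0.67 (SE 0.27, adjusted p 0.505) with age in irradiated mice. The dimmer of them was detected on 5 of 5 middle-aged irradiated tumours, 1 of 7 middle-aged unirradiated, 2 of 8 young irradiated and 5 of 10 young unirradiated. None of these probe values passed limma's test over 17724 probes. These contrasts share the middle-aged irradiated tumours, so their values are not independent.

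For the remaining genes no contrast passed. Grem1 differences lay between 0.01 and 0.28 over the 5 pairs of groups, with standard errors between 0.32 and 0.40, and its 95% interval with age in unirradiated mice ran from -0.49 to 0.87. Its SD was widest in the middle-aged unirradiated group, where tumours ran from 7.07 over a median of 8.41 to 10.21, and narrower in young irradiated tumours, from 7.76 over 8.45 to 8.73; the difference in spread was not tested. Bmpr1a gave -0.30 (SE 0.20) on its brightest probe with age in irradiated mice, whereas its second probe gave 0.36 (SE 0.27) there and 0.41 (SE 0.23) with age in unirradiated mice, so the probes disagreed in sign. Smad6 gave -0.22 (SE 0.17) with age in irradiated mice. Of the 34 genes of the BMP lists tested over tumours 0 passed in any of the 6 contrasts. The smallest p among them was 0.0070, for Junb with irradiation in middle-aged mice (-0.65, SE 0.23, adjusted p 0.634). Weighting arrays by quality (0.142 and 0.278 for the dim arrays) called Smad1 at 0.46 (adjusted p 0.042) and Skil at 0.52 (adjusted p 0.0434) higher with irradiation in middle-aged mice, among 227 genes in all.

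**Figure D4:**
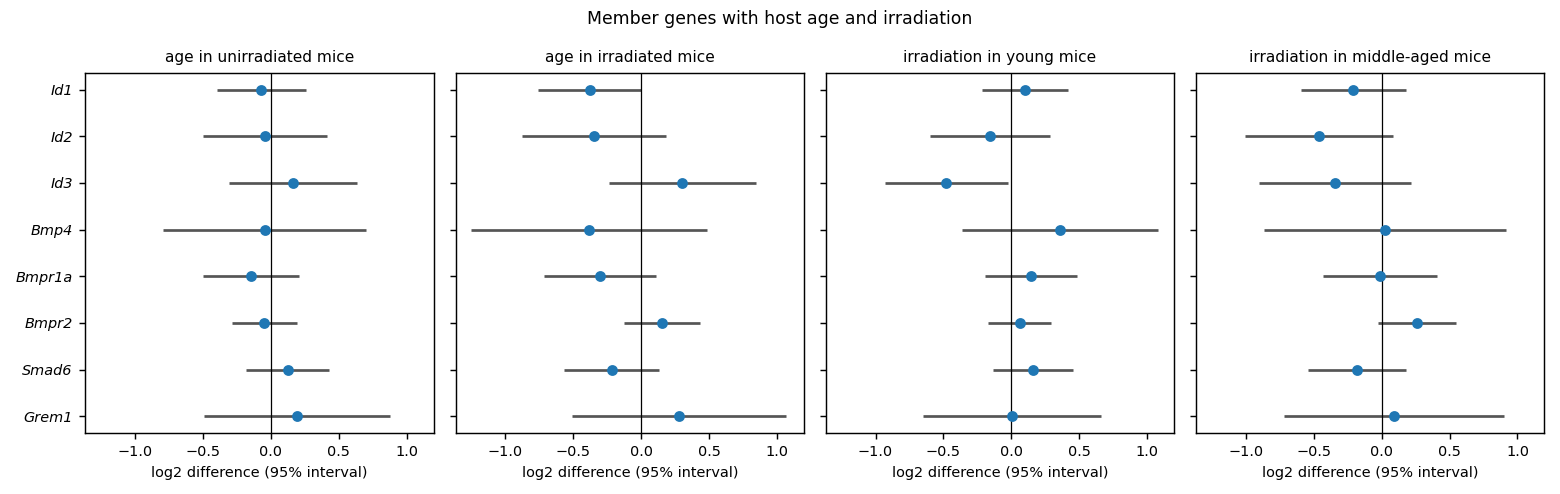
Log2 differences with age in unirradiated and irradiated mice and with irradiation in young and middle-aged mice (horizontal axes), with 95% intervals, for the 8 genes tested (vertical axis). All but 2 of the intervals cover 0; Id1 with age in irradiated mice and Id3 with irradiation in young mice end just short of it, with adjusted p of 0.683 and 0.885.

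Levels were also related across the 30 tumours, each pair with a permutation test of 100000 resamples, 2-sided, adjusted over the 28 pairs of the 8 genes tested. Each gene is read here by its brightest probe; for Bmpr2 this is the probe that the other Bmpr2 probes did not follow between tumours and cells, and whether it measures Bmpr2 was not tested. Bmpr1a and Id2 also have a second probe that gave other differences in contrasts above, and those probes were not related here. On the brightest probes Bmpr1a and Bmpr2 gave r = 0.63 and rho = 0.60 (permutation adjusted p 0.0036 and 0.0066). Bmp4 and Bmpr2 gave r = 0.59 and rho = 0.63 (permutation adjusted p 0.0036 and 0.0059), and Bmp4 and Bmpr1a r = 0.51 and rho = 0.42 (permutation adjusted p 0.0163 and 0.105). Id1 and Id2 gave r = 0.48 and rho = 0.40 (permutation adjusted p 0.0426 and 0.105), and Id1 and Bmpr2 ran opposite, with r = -0.54 and rho = -0.54 (permutation adjusted p 0.0163 and 0.0203). Id1 and Id3, both lower in tumours than in cells, gave r = 0.16 and rho = 0.26 (permutation adjusted p 0.628 and 0.339). Smad6 and Grem1 passed by rank alone, with r = -0.46 and rho = -0.53 (permutation adjusted p 0.054 and 0.0203). The Smad6 probe was detected on 5 of 30 tumours and the Bmp4 probe on 13. Relations of these genes, here and below, therefore rest largely on values near background. None of the 5 calls by r held when the 2 tumours farthest from the median on the first gene were left out: r was then 0.53 for Bmpr1a and Bmpr2, 0.51 for Bmp4 and Bmpr2, 0.32 for Bmp4 and Bmpr1a, 0.22 for Id1 and Id2 and -0.44 for Id1 and Bmpr2. For Bmp4 those 2 tumours were the dim arrays, so this check and the one without the dim arrays are the same. For Bmp4 and Bmpr2 r fell from 0.59 to 0.51 in both checks, and whether 0.51 passed depended on the adjustment. It passed without the dim arrays (permutation adjusted p 0.0432). It did not pass here (permutation adjusted p 0.0895), where pairs of other genes left out other tumours. Bmpr1a with Bmpr2 and Bmp4 with Bmpr2 also passed with the authors' values (r = 0.52 and 0.66) and as deviations from group means (0.72 and 0.64), and Bmpr1a with Bmpr2 without the dim arrays (0.55). Id1 and Bmpr2 passed without the dim arrays (-0.56) and as deviations (-0.54) and not with the authors' values (-0.42). Bmp4 and Bmpr1a passed with the authors' values (0.45) and as deviations (0.48) and not without the dim arrays, the same check as above (0.32). Id1 and Id2 passed with the authors' values (0.51) and not without the dim arrays (0.47) or as deviations (0.44). Id3 and Bmp4 turned from -0.39 (permutation adjusted p 0.157) to 0.54 (permutation adjusted p 0.0306) without the dim arrays. Median scaling turned Id1 and Bmpr2 to 0.70, Bmp4 and Bmpr1a to -0.095 and Bmp4 and Bmpr2 to -0.00012, and raised Id1 and Id3 to 0.83.

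Each gene was also related to the mean level of 10 cell type and cell cycle lists, 80 relations in all. Grem1 and the 7 neutrophil markers measured gave r = 0.62 (permutation adjusted p 0.028) and rho = 0.59 (permutation adjusted p 0.0728). This was the only call among the 80 by r, and it kept an adjusted p of at most 0.0451 by r with the authors' values (r = 0.58), under median scaling (0.70), without the dim arrays (0.62), as deviations from the group means (0.70) and without the 2 tumours farthest on Grem1 (0.57). Neutrophil marker means ran from 7.05 to 10.22 over the tumours. Id2 and the neutrophil markers gave r = 0.56 and rho = 0.48 (permutation adjusted p 0.0548 and 0.163), and Id1 and the endothelial markers r = 0.52 and rho = 0.39 (permutation adjusted p 0.0821 and 0.305), neither passing. Id2 and the neutrophil markers did pass with the authors' values (r = 0.56), without the dim arrays (0.57), as deviations from group means (0.61) and under median scaling (0.63), and not without the 2 tumours farthest on Id2 (0.48). Id1 and the endothelial markers passed with the authors' values (0.55) and under median scaling (0.89). Bmp4 and the macrophage markers, at r = -0.43 (permutation adjusted p 0.286), gave -0.62 (permutation adjusted p 0.0168) without the dim arrays, and Grem1 and the macrophage markers, at -0.47 (permutation adjusted p 0.158), gave -0.57 (permutation adjusted p 0.0334) with the authors' values and 0.48 under median scaling. Tumours share arrays and normalization across these measures, and all are descriptions of these 30 tumours.

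**Figure D5:**
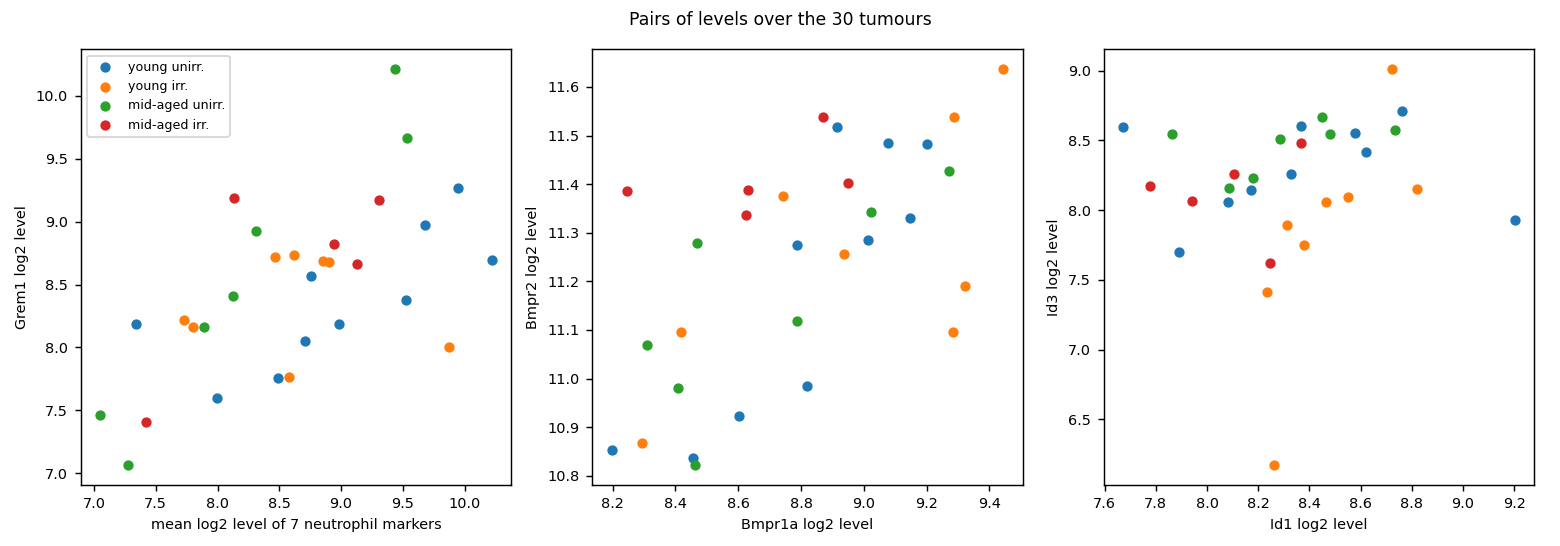
Levels over the 30 tumours, coloured by group: Grem1 against the mean log2 level of 7 neutrophil markers (left), Bmpr2 against Bmpr1a (middle) and Id3 against Id1 (right), all axes in log2 normalized intensity. The first pairs rise together, at r = 0.62 and 0.63, and Id1 and Id3 are spread without such a trend, at r = 0.16, with the dim array at 6.17 lowest for Id3.

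The 5 genes whose levels were most like each member's over the 30 tumours were listed by Pearson's r among 10907 genes, as a description with no test. For Id1 they were Dusp5, a MAP kinase phosphatase (r = 0.71), Pcolce2 (0.69), Atg2b (0.65), Jaml (0.60) and Ntng2 (0.59). For Id2 they were Ier3, an immediate early gene (0.77), Uqcrq of respiratory complex III (0.70), Cytip (0.68), Prl2c3 (0.68) and Pgk1, a glycolytic enzyme (0.67). For Grem1 they were Prl2c2 (0.78), Gng12 (0.77), Nt5e, the ectonucleotidase CD73 (0.77), the oncostatin M receptor Osmr (0.77) and the collagenase Mmp13 (0.76), each at 0.77 or more without the dim arrays. For Bmpr2 they were Ginm1 (0.86), Wasf2 (0.82), Resf1 (0.82), Tbc1d23 (0.82) and Twsg1 (0.82), and for Bmpr1a Tanc1 (0.81), Anxa4 (0.79), Pcmtd2 (0.78), Cblb (0.77) and Dnase1l1 (0.76). For Id3 they were Zfp709 (0.77), Rtn4ip1 (0.75), Pigyl (0.73), Mrgprg (0.73) and Git1 (0.73), and without the dim arrays these r were 0.56, 0.34, 0.22, 0.45 and 0.17. For Bmp4 they were Rps23rg1 (0.89), Il13ra2 (0.89), Olfr985 (0.88), Foxf2 (0.87) and Abcc9 (0.86), and without the dim arrays 0.64, 0.65, 0.64, 0.59 and 0.50. For Smad6, detected on 5 of 30 tumours, they were Ppp3cb (0.61), Ifi35 (0.59), Nol4 (0.55), Cbfa2t3 (0.54) and Pigb (0.53), and without the dim arrays 0.60, 0.61, 0.60, 0.50 and 0.61.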

How the data were processed

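Expression was measured on Illumina BeadArrays in 30 tumours and 6 LLC cell control arrays. The authors deposited, per the file headers, an unnormalized intensity with its detection p-value, probe by probe. The submitters' processing notes name GenomeStudio, with no version in the sources used here. The authors' normalized intensity, deposited without a stated scale, was used on the log2 scale as an alternative. Probes were named by the platform table. Intensities were corrected with normexp from detection p-values (offset 16), quantile normalized and taken to log2. The brightest probe stood for its gene, and genes detected on at least 5 tumours (5 of 36 arrays against cells) were tested with limma 3.58.1 in R 4.3.3 in 1 fit of group means, at an adjusted p of 0.05. The fit was tested on simulated data with known changes. In a check, some same-numbered tumours correlated above 0.1 and others did not, so tumours were not paired by the deposited replicate numbers. Shared handling by number was not tested. All member genes, lists and rules were chosen with earlier results of these data known. The number of arrays limits precision. Each listed BMP gene past the threshold was named, up to 4 per direction and list, or else the smallest p; likeness named the top 5. The probe by probe fits were added after seeing the data. Alternatives were other normalization, filters, probe means, weights, dim arrays, brightness, cell batches, a replicate block and leaving out each tumour.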

Additional observations from a re-analysis of the deposited data

How the results depend on the processing

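Leaving out each of the 30 tumours in turn left 3 members called between tumours and cells, 13 to 14 genes of the BMP lists and 2234 to 2665 genes in all, and 0 members in the other 6 contrasts. Between tumours and cells, median scaling gave 386 genes, 1 member and 1 BMP list gene, and the cell batches as 2 samples gave 4360 genes; 3 member calls ended over all settings (Bmpr2 under median scaling and with probe means, Id3 under median scaling) and 1 was gained (Smad6). With age in unirradiated mice (0 genes) the authors' values gave 1, array weights 413 and leaving out the dim arrays 29, and leaving out 1 tumour 0 to 123, the most without young unirradiated replicate 5. With age in irradiated mice (1 gene) the authors' values gave 3, no background correction 2, no filter 2, weights 6, and median scaling, detection on most arrays, no dim arrays and the replicate block 0 each, and leaving out 1 tumour 0 to 3. Irradiation in young mice (0) gave 0 to 1 without 1 tumour (young unirradiated replicate 9), and in middle-aged mice (0) weights gave 227 genes and 2 BMP list genes. Middle-aged irradiated against young unirradiated (2 genes) gave 1 with the authors' values, 1 without background correction, 1 with detection on most arrays, 0 with median scaling, 6 with probe means, 32 with weights, 8 without the dim arrays, 0 with the replicate block and 0 to 7 without 1 tumour. Same-numbered tumours did not correlate above 0.1 in every pair, so the number was not used to pair them. Between young and middle-aged unirradiated tumours 3 of 7 same-numbered pairs did, with a mean of 0.10 against -0.01 for other numbers. Shared handling by number was not tested. The replicate block changed no member's call. Correlation calls between members (5) were 15 under median scaling and 0 without the 2 tumours farthest on the first gene, and those with lists (1) were 4 with the authors' values, 46 under median scaling, 3 without the dim arrays, 3 without the 2 farthest tumours and 2 as deviations from group means. Under median scaling r became 0.70 for Id1 and Bmpr2, -0.095 for Bmp4 and Bmpr1a and -0.00012 for Bmp4 and Bmpr2. Leaving out young irradiated replicate 4 gave the 3 genes above, and middle-aged irradiated replicate 4 the 7. The cause of these changes was not tested. Differences on probes near background, as for Bmp4 and Smad6, are not well measured. For Bmp4 the dim arrays read highest after normalization, although their unnormalized signals were low.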
